A study of Mus musculus with 28 samples.

Results

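RNA levels were compared before and after 5 days of differentiation in mouse cells that carry a methionine in place of a lysine near the end of Elongin A, a change named K754M. The line was made by editing CJ7 cells, an established line of mouse embryonic stem cells (mESCs), and it was given as 2 mESC libraries and 2 libraries of embryoid bodies (EBs), the aggregates that stem cells form once LIF is withdrawn. These 4 libraries were chosen by their labels, out of 28 in the series. The comparison asked which genes change as K754M cells leave the stem cell state, and whether they change as they do in other CJ7 cells. For the second question 4 wild type (WT) CJ7 libraries and 4 libraries of K754R, where the same lysine is an arginine, were used at the same 2 stages. A further 4 libraries of Eed null CJ7 cells entered the fit. Every stem cell group grew on mitotically inactive mouse fibroblasts, the feeder cells, in serum medium with LIF and the inhibitors PD0325901 (1 µM) and CHIR99021 (3 µM), between passages 15 and 26, and feeders were reduced by a short plating step before collection. The same inhibitor concentrations are listed for the EB samples, so whether EBs grew without the inhibitors cannot be read from that listing. The labels do not say whether a line is 1 clone or whether the 2 libraries of a group came from separate cultures. The p-values below therefore measure the spread between libraries, which may be technical.

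LIF and inhibitors of the MEK and GSK3 kinases hold mouse stem cells in a naive state that resembles the early epiblast. When they are withdrawn, cells in embryoid bodies lose naive factors, pass through a primed state and then form a mixture that includes primitive streak, mesoderm, endoderm and, depending on the signals, neural cells. Elongin A is the large subunit of a complex that speeds transcript elongation by RNA polymerase II, and it also serves in a ubiquitin ligase, and Polycomb repressive complex 2 (PRC2) is a methyltransferase that keeps many developmental genes silent in stem cells.

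The stretch of Tceb3, the gene of Elongin A, that holds its codon is shown because it is the site of the only difference that the labels name between K754M and WT. It was read from GENCODE M21 transcripts of the GRCm38 build, where Tceb3 lies on the minus strand of chromosome 4, and the capitals mark the codon of that residue in the unedited reference, whose coding sequence has 773 codons. The codon before it, AAG, also encodes lysine. The marked codon is split between the last 2 of 11 exons, with 1 base at the end of exon 10 (the part shown is chr4:136006171-136006198) and the rest in exon 11 (chr4:136005649-136005677).
Tceb3 coding strand: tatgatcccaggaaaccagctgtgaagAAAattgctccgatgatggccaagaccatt
"Before" and "after" below stand for mESCs and day 5 EBs, and each pair of values gives libraries 1 and 2. Tceb3 RNA was 9.22 and 8.93 RPKM (a read density per kilobase of transcript that is scaled to library depth) in the 2 K754M mESC libraries and 9.67 and 11.4 in the 2 EB libraries. The EB values lay just above the mESC values, and the difference did not pass the test (log2 change 0.20 ± 0.17, adjusted p = 0.379). WT cells had 10.7 and 12.2 RPKM as mESCs and 10.1 and 11.6 as EBs. A total per gene does not show which base the transcripts carry, so these values do not check the edit.

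Depth, estimated from the size of the step that 1 read makes in the low values, was 12.6 and 15.3 megareads in the K754M mESC libraries and 32.0 and 32.6 megareads in the EB libraries. It ranged from 11.1 to 18.2 megareads over all CJ7 mESCs and from 28.7 to 39.9 megareads over all CJ7 EBs. Stage, the table in which the authors deposited the values and depth split the libraries in the same way, so a difference between stages cannot be told apart from a difference between tables. A factor between tables cancels in the comparisons of K754M with WT and with K754R only for genes well above 0.5 RPKM at both stages. For a gene near 0 in the EBs of both lines, the difference of log2 changes mostly reflects the mESC levels. The 2 mESC libraries of K754M were also less alike than its EB libraries, with a median absolute difference of 0.33 against 0.13 on the log2 scale. Feeder RNA differed as well: the summed level of 38 fibroblast genes was 662 RPKM in mESC library 1 and 1590 in mESC library 2, against 267 and 203 in the EBs. A single small RNA row, 7SK, held 15.5% and 13.9% of the summed RPKM of the 2 EB libraries.

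In K754M cells 2039 genes were higher and 3680 lower at day 5, which is 8.94% and 16.1% of the 22818 tested (25.1% in either direction, and 40.7% without a minimum of change). A gene was called at an adjusted p below 0.05 in limma's moderated test on log2(RPKM + 0.5), fitted over all 16 CJ7 libraries, and a change of at least 2-fold. "Rose" and "fell" below are used only for called genes, and log2 changes are given ± their standard error (n = 2 libraries per group). The added 0.5 makes the log2 change of a weakly expressed gene smaller than the ratio of its values. The median log2 change over all genes was -0.14, and how the calls split depended on the scaling. Rises made up 35.7% of the calls as deposited, 59.8% after centring each library on its median (3725 higher and 2500 lower, median change 0.27), 52.1% after quantile normalization and 48.4% after centring on genes at 5 RPKM or more. Leaving out any 1 of the 4 K754M libraries gave between 5138 and 6394 calls, and 1451 rises and 2704 falls were called whichever library was left out.

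Most of these genes were also called in WT cells, where 10% of the genes tested rose and 16.1% fell. Of the 2039 rises in K754M 1594 were rises in WT (78.2% of the K754M rises and 69.5% of the 2292 WT rises), and of the 3680 falls 2907 were shared (79.0% and 79.1% of the 3674 WT falls). A further 5 genes rose in K754M and fell in WT, and 5 did the opposite. In K754R cells 9.94% rose and 17.1% fell. With them the shared calls were 1549 rises (76.0% of those in K754M) and 2966 falls (80.6%). The shares are descriptions, since a gene past the threshold in one line and short of it in another need not differ between them.

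Genes of the naive stem cell state fell as a group. Of 30 naive pluripotency genes tested 23 fell and none rose, each of the 23 also without any 1 K754M library, with a median log2 change of -3.21. Their summed level went from 3261 and 3786 RPKM in mESCs to 341 and 372 in EBs. Nanog, a homeobox regulator of the naive state, was at 465 and 656 RPKM in the mESC libraries and at 58.7 and 62.1 in the EB libraries, a fall of -3.18 ± 0.23 on the log2 scale (adjusted p = 6.93e-07). The zinc finger gene Zfp42, also known as Rex1, went from 277 and 563 RPKM to 24.5 and 26.3 (-3.93 ± 0.38). For these genes the mESC and EB values lay far apart, and neither gene was silent in the EB libraries. The nuclear receptor gene Esrrb, by contrast, went from 47.5 and 58.5 RPKM to 1.18 and 1.496 (-4.86 ± 0.27), and Tfcp2l1, which encodes a transcription factor of the same network, from 84.4 and 90.3 to 1.41 and 1.61 (-5.45 ± 0.21). Fgf4, the FGF ligand that stem cells make themselves, had 132 and 88.1 RPKM in mESCs and 1.03 and 1.497 in EBs (-5.95 ± 0.28, adjusted p = 2.34e-08). These 3 genes were thus left at under 2 RPKM in libraries that kept Nanog and Zfp42 at higher levels. Fbxo15 (-5.64), Klf4 (-3.95), Klf2 (-3.85), Nr5a2 (-3.97), Prdm14 (-4.34) and Tcl1 (-4.64) fell as well. Tbx3 at 14.7 and 23.4 RPKM against 12.7 and 10.4 and Dppa3 at 4.65 and 3.83 against 2.21 and 1.93 were not called (adjusted p = 0.0851 and 0.0346, the latter with a change under 2-fold).

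**Figure D1:**
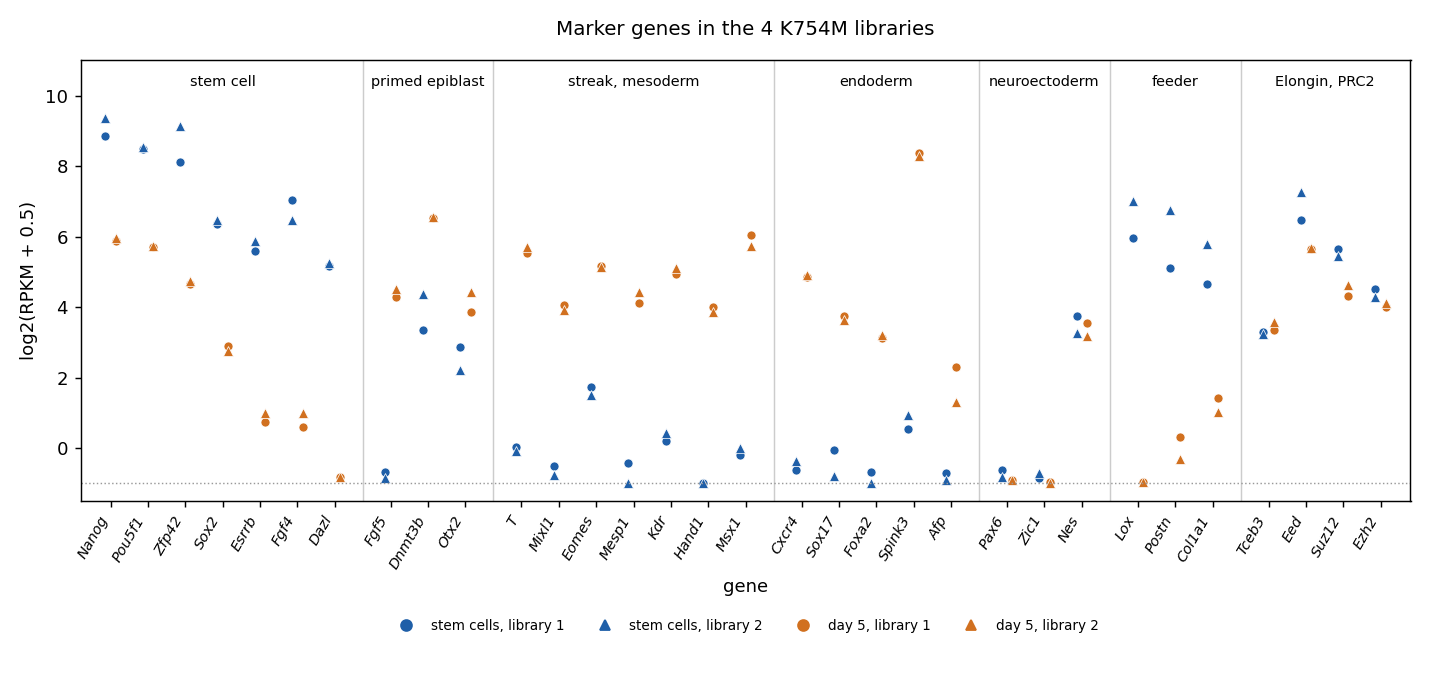
Levels of marker genes in the 4 K754M libraries, as log2(RPKM + 0.5) on the vertical axis, with 1 point per library (blue, mESC libraries 1 and 2; orange, day 5 EB libraries 1 and 2) and genes grouped by the cell type they mark. The dotted line is the level of a gene listed at 0 RPKM. Most stem cell genes lie lower and streak, mesoderm and endoderm genes higher at day 5, Pax6 and Zic1 lie at the floor at both stages, and the Tceb3 values lie close together.

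The core pluripotency genes, which stem cells and primed epiblast share, split. Pou5f1, which encodes Oct4, was at 358 and 370.1 RPKM in mESCs and 51.5 and 52.3 in EBs (-2.80 ± 0.16, adjusted p = 1.19e-07), and Sox2 at 80.98 and 88.4 before and 6.95 and 6.21 after (-3.59 ± 0.22, adjusted p = 1.91e-07). In both genes the libraries of a stage lay close together and the stages did not overlap, and EBs kept about as much Pou5f1 as Nanog. Sall4, a zinc finger partner of Oct4, did not pass the test (23.9 and 29.5 against 34.0 and 33.5 RPKM). Lin28a and Lin28b, which block maturation of let-7 microRNAs, rose: Lin28a from 13.5 and 20.05 to 120.0 and 123 RPKM (2.84 ± 0.21) and Lin28b from 4.27 and 8.12 to 15.3 and 19.3 (1.47 ± 0.25). The adhesion gene Epcam rose from 11.8 and 7.30 to 47.0 and 46.4 RPKM. In all, 4 of 18 core genes rose and 5 fell, a median of -0.36, and 6 rose and 4 fell after median centring. Over all genes 8.94% rose and 16.1% fell as deposited.

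MicroRNA hairpins of the Mir290 cluster, the most abundant microRNA genes of mouse stem cells, fell. Total RNA libraries measure the hairpin or its longer precursor and not the mature microRNA, and all but 1 of these rows share every base with an overlapping transcript, so reads of the host transcript cannot be told apart from them. Mature sequences are shown to set the 2 stem cell clusters side by side: RefSeq (GRCm38.p6) gave a 3p sequence for 11 of the 13 rows looked up, here in 5′ to 3′ order with the seed, bases 2 to 8, in capitals.
miR-291a-3p: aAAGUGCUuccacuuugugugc
miR-294-3p: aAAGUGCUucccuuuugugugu
miR-295-3p: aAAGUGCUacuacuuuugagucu
miR-302b-3p: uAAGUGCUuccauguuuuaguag
miR-302d-3p: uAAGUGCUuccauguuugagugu
miR-290a-3p: aAAGUGCCgccuaguuuuaagccc
miR-293-3p: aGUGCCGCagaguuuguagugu
The first 5 share the seed AAGUGCU although they come from clusters on different chromosomes (the Mir290 cluster on 7, the Mir302 cluster on 3), while miR-290a-3p differs from it in the last seed base and miR-293-3p has another seed. Mir290 had 138 and 117 RPKM in mESCs and 15.2 and 10.8 in EBs (-3.26 ± 0.18, adjusted p = 6.57e-08), and Mir294 had 97.5 and 89.7 before and 15.0 and 19.2 after (-2.43 ± 0.26). Mir291a (-2.82), Mir291b (-2.64), Mir292 (-3.29), Mir293 (-2.25) and Mir295 (-2.75) fell too. The Mir302 cluster, which is known from primed epiblast, was not called: Mir302b had 10.9 and 8.05 RPKM in mESCs and 14.1 and 13.4 in EBs (adjusted p = 0.233) and Mir302a 7.002 and 2.88 before and 13.7 and 16.2 after (adjusted p = 0.141). Mir200a, of a family that epithelia use, was listed at 0 in both mESC libraries and at 2.45 and 3.10 RPKM in EBs, a rise that was not called without EB library 2 (adjusted p = 0.0662). Over the 40 microRNA rows tested 3 rose and 8 fell (6 and 7 after median centring), beside 8.94% and 16.1% over all genes as deposited.

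Germline genes were active in the stem cells and largely silent at day 5. Of 37 tested 27 fell and 1 rose (median -2.47), 24 of the falls without any 1 library. Dazl, an RNA-binding protein of germ cells, went from 35.5 and 37.7 RPKM to 0.0633 and 0.0623, and Sohlh2, a transcription factor of spermatogonia, from 58.3 and 35.2 to 0.198 and 0.104 (-6.04 ± 0.31 and -6.14 ± 0.24). The synaptonemal complex gene Syce1 went from 22.8 and 30.0 to 0.430 and 0.888 RPKM, the piRNA pathway gene Mael from 16.6 and 12.5 to 0.284 and 0.539 and the retrotransposon repressor Tex19.1 from 48.5 and 65.2 to 3.68 and 3.18. In each gene both mESC values lay far above both EB values. The rise was of Tdrd5 (0.461 and 0.176 to 1.97 and 1.81 RPKM). Ddx4 and Sycp3 fell (-1.28 and -2.14), but both calls were lost when either EB library or mESC library 1 was left out (-1.42 to -1.11 and -2.36 to -1.46).

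Primed epiblast genes rose. Of 21 tested 12 rose and 2 fell (median 1.61), 11 of the rises without any 1 library. Fgf5, the ligand most used to mark the primed state, had 0.127 and 0.0523 RPKM in mESCs and 18.8 and 22.3 in EBs (5.16 ± 0.28, adjusted p = 6.05e-08). Otx2, a homeobox regulator of the anterior epiblast, had 6.79 and 4.16 before and 14.1 and 21.1 after (1.61 ± 0.34). Dnmt3b, a de novo DNA methyltransferase, had 9.70 and 20.4 before and 90.9 and 93.6 after (2.67 ± 0.42). All 3 were well separated between stages. The cofactor gene Dnmt3l went the other way, from 38.7 and 50.03 to 1.74 and 1.45 RPKM (-4.41 ± 0.15, adjusted p = 2.73e-09), as did the methylcytosine oxidases Tet1 (12.3 and 17.2 to 2.94 and 4.88) and Tet2 (24.1 and 41.7 to 1.84 and 4.51). Dnmt3a was at 5.78 and 5.25 before and 5.84 and 6.94 RPKM after and did not pass the test. Foxd3 and Etv5 were the 2 falls in the primed list.

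The primitive streak, the site where epiblast cells become mesoderm and endoderm, was represented by 29 genes, of which 19 rose and 2 fell (median 2.66), and 18 of the rises held without any 1 library. T, the gene of Brachyury, had 0.516 and 0.453 RPKM in mESCs and 46.1 and 51.8 in EBs (5.65 ± 0.40, adjusted p = 6.07e-07). Mixl1, a homeobox gene of the streak, had 0.208 and 0.0855 before and 16.1 and 14.6 after (4.62 ± 0.24). Eomes, a T-box gene needed for definitive endoderm, had 2.86 and 2.34 before and 35.4 and 34.4 after (3.52 ± 0.36). No EB value of these genes came near an mESC value. Mesp1, of the earliest cardiac mesoderm, went from 0.249 and 0 to 16.8 and 21.2 RPKM, the ligand Fgf8 from 0.131 and 0 to 19.8 and 18.2 and the apelin receptor gene Aplnr from 0.0668 and 0.0550 to 13.9 and 19.4. The organizer gene Gsc rose from 3.27 and 2.23 to 21.9 and 17.9. Tbx6, which marks paraxial mesoderm, overlapped between stages (1.77 and 1.27 against 1.16 and 1.38 RPKM, adjusted p = 0.668). Cdx1 and Tcf15 fell, from 2.13 and 2.95 and from 5.68 and 5.74 RPKM.

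Genes of lateral and cardiac mesoderm rose in 20 of 30 cases and fell in none (median 2.13). Hand1, a helix-loop-helix factor of lateral mesoderm, was listed at 0 in both mESC libraries and at 15.7 and 14.1 RPKM in EBs (adjusted p = 2.24e-08). Tbx20, of the heart field, went from 0.230 and 0.0146 to 21.7 and 22.9 (5.22 ± 0.20), and Kdr, the VEGF receptor of mesoderm that forms blood and vessels, from 0.657 and 0.836 to 30.1 and 34.0 (4.71 ± 0.26). The stages were far apart for these 3 genes, and the EB libraries were alike. The later heart gene Nkx2-5 overlapped between stages (0.834 and 0.0858 against 0.4495 and 0.362 RPKM). Isl1, of the second heart field, rose to 2.38 and 2.90 RPKM from 0.222 and 0.0915, a low level beside that of Tbx20.

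Blood and endothelial genes were less uniform, with 11 of 25 rising and 2 falling (median 0.86). The embryonic globin gene Hbb-bh1 was listed at 0 in both mESC libraries and at 14.3 and 8.23 RPKM in EBs. Tal1 (0.0726 and 0.0448 to 2.61 and 3.81), Etv2 (0.246 and 0.506 to 6.80 and 5.13) and Lmo2 (0.671 and 0.232 to 6.59 and 6.31), early regulators of both lineages, rose to modest levels. Cdh5, the cadherin of vessels, reached 0.807 and 1.02 RPKM, and Gata1 did not pass the test (0.882 and 0.699 against 0.244 and 0.568). Pecam1, an adhesion gene that naive stem cells also express, fell from 52.8 and 40.1 to 3.40 and 3.66 RPKM (-3.53 ± 0.24). In a bulk library fewer cells of a type and less RNA per cell cannot be told apart, so these levels do not give the share of any cell type.

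Endoderm genes were higher at day 5: 19 of 24 genes of definitive and anterior endoderm rose and none fell (median 2.88). Cxcr4, a chemokine receptor used to sort definitive endoderm, had 0.152 and 0.275 RPKM in mESCs and 28.5 and 29.8 in EBs (5.38 ± 0.16, adjusted p = 1.14e-09). Sox17, a regulator of endoderm, had 0.464 and 0.0796 before and 13.1 and 11.9 after, Foxa2 0.131 and 0 before and 8.27 and 8.79 after, and Cer1, an inhibitor of Nodal and BMP made by anterior endoderm, 0.0457 and 0 before and 11.97 and 13.98 after. The EB libraries were alike in these genes, and the stages did not overlap. Spink3, a protease inhibitor of gut endoderm, had the largest rise of any gene the naming rule admits, from 0.949 and 1.41 to 334 and 312 RPKM (7.60 ± 0.30). The keratins Krt8 (6.85 and 8.18 to 1072 and 848) and Krt18 (15.1 and 5.81 to 811 and 664), which trophoblast and endoderm share, are uncertain, since 36.0% and 11.4% of their 31-base words also occur in other genes.

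Visceral endoderm, an extraembryonic layer that feeds the embryo, gave 13 rises and 2 falls of 26 (median 0.97). Ttr, a carrier of thyroid hormone, had 0.196 and 0.0538 RPKM in mESCs and 13.2 and 8.59 in EBs, Apob, of lipoproteins, 0.199 and 0.0700 before and 4.89 and 4.23 after, and the fetal albumin Afp 0.115 and 0.0315 before and 4.43 and 1.98 after. The EB libraries differed most for Afp, and still lay above both mESC libraries. Amot, a junction protein of this layer that acts in Hippo signalling, went from 0.539 and 1.71 to 192 and 198 RPKM (7.01 ± 0.38). Apoa1 rose only to 0.848 and 0.638 RPKM, a call lost without mESC library 2 or EB library 1 (0.98 and 0.95). The basement membrane list, which parietal endoderm shares, held 9 rises and 8 falls among 23 genes: Col4a1 rose from 21.5 and 27.9 to 103 and 85.2 RPKM and Lamb1 from 9.98 and 10.4 to 29.3 and 25.7, while Lamc1 fell from 48.5 and 40.1 to 12.4 and 12.01 and Nid1 from 83.4 and 57.0 to 6.63 and 7.47. Of those calls 7 rises and 5 falls held without any 1 library. On the trophoblast list 15 of 25 genes rose and 2 fell (median 2.54). Of these Hand1, Eomes, Bmp4 and Msx2 are also on lists of mesoderm, and Cdx2, Krt8, Krt18 and Krt19 on lists of endoderm. Plac1, of the placenta, rose from 0 and 0.0286 to 3.19 and 3.15 RPKM, and Krt7 rose to 2.50 and 2.68 RPKM only with both EB libraries and mESC library 2 in the fit (0.96 to 1.66 otherwise).

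Neuroectoderm genes were mostly not called: 3 of 34 rose and 5 fell (median -0.33), shares close to those over all genes (8.94% and 16.1%), and 4 rose and 3 fell after median centring. Pax6, the eye and forebrain regulator, had 0.154 and 0.0634 RPKM in mESCs and 0.0373 and 0.0315 in EBs, and Zic1 had 0.0576 and 0.114 before and 0.0136 and 0 after. Nes, the intermediate filament of neural progenitors, overlapped between stages (12.9 and 9.14 against 11.2 and 8.59 RPKM, adjusted p = 0.652). Neither stage thus held more than a trace of Pax6 or Zic1 RNA. Hesx1, of the anterior neural plate, fell from 2.51 and 2.01 to 0 and 0.0269 RPKM and En2 from 1.39 and 1.23 to 0.0625 and 0.148. The 3 rises were Fabp7 (to 1.95 and 1.37), Irx3 (to 1.04 and 1.39) and Zic2 (to 4.95 and 5.64 RPKM), of which Fabp7 was called whichever library was left out. Irx3 was lost without any 1 of the 4 libraries (0.85 to 1.32) and Zic2 without mESC library 1 or either EB library (0.96 to 1.13).

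Hox genes pattern the body axis. Of 34 tested 1 rose and 12 fell (median -0.45), 9 of the falls without any 1 library, and the counts were 3 and 9 after median centring. The fallen genes came from all 4 Hox clusters, and most of them are central or posterior members. Hoxc13 went from 5.07 and 3.59 to 0.139 and 0.0747 RPKM, Hoxc12 from 3.70 and 3.17 to 0.0302 and 0 and Hoxd13 from 1.44 and 1.87 to 0.0376 and 0.0247 (-2.98 ± 0.23, -2.93 ± 0.19 and -2.01 ± 0.22). Hoxb1, an anterior member, had 0 and 0.0266 before and 0.254 and 0.187 after (RPKM) and was not called. Hoxd1 rose from 0.853 and 0.1404 to 1.52 and 1.66 RPKM, a call lost without mESC library 2 (0.63) or either EB library (1.12 and 1.22).

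**Figure D2:**
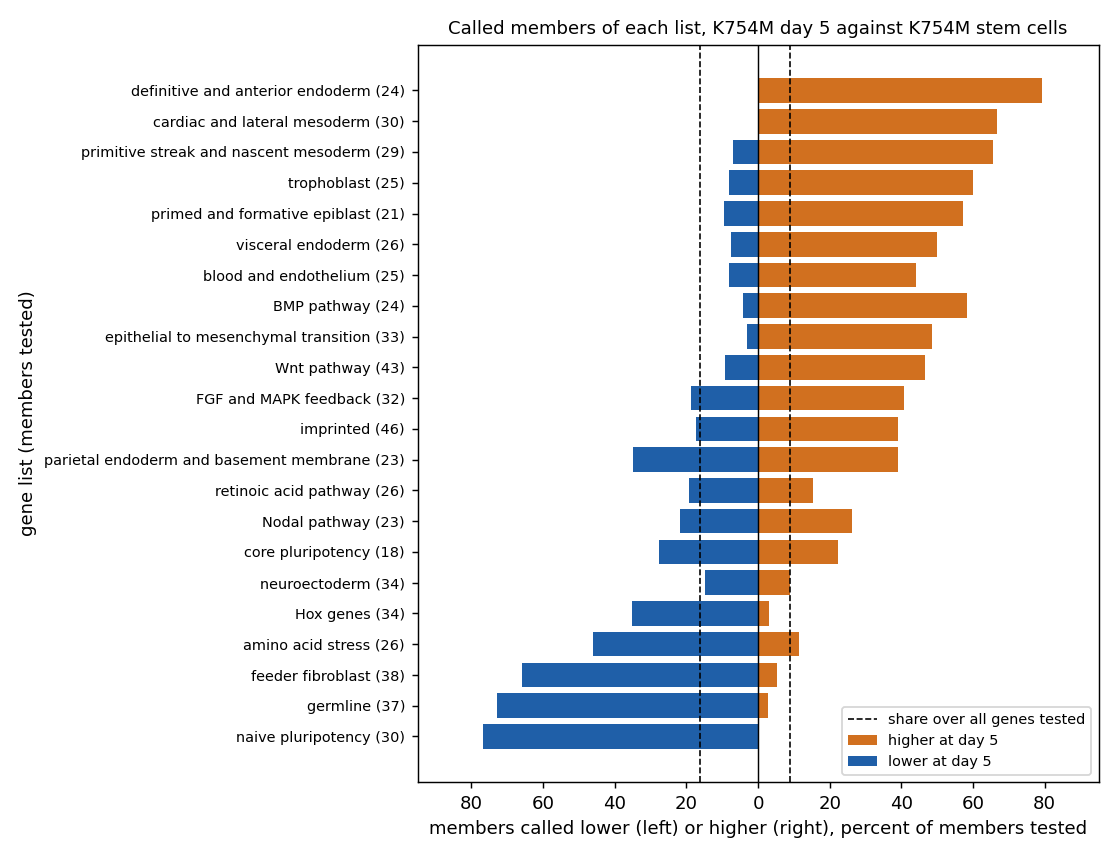
Share of each gene list called lower (blue, to the left) or higher (orange, to the right) in K754M EBs against K754M mESCs, in percent of the members tested, whose number stands after each list's name. Dashed lines give the shares over all 22818 genes tested, 8.94% higher and 16.1% lower. The naive pluripotency, germline and feeder lists extend far to the left and the endoderm and mesoderm lists far to the right of those lines.

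Among signalling pathways, ligands and targets of BMP rose, with 14 of 24 genes higher and 1 lower (median 1.43). Of the ligands, Bmp4 rose from 1.28 and 2.88 to 17.5 and 20.5 RPKM and Bmp2 from 0.0894 and 0.0552 to 4.43 and 5.47 (2.99 ± 0.49 and 3.25 ± 0.21). Of the target genes, Id1 rose from 2.16 and 8.77 to 103 and 89.2 RPKM (4.28 ± 0.57) and Msx1 from 0.369 and 0.507 to 65.7 and 53.2 (5.99 ± 0.27). The mESC libraries were well apart on Id1, and its EB values lay far above both. The mediator Smad1, the inhibitory Smad6 and the decoy receptor Bambi rose too (2.02, 2.61 and 2.57). The antagonist Grem1 fell, a call lost without mESC library 2 or either EB library (-2.81 to -1.60).

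Wnt genes gave 20 rises and 4 falls of 43 (median 0.76), 16 of the rises without any 1 library. The ligand Wnt3, which sets up the streak, went from 0.258 and 0.0851 to 13.7 and 13.5 RPKM (4.40 ± 0.23), and the secreted inhibitor Dkk1 from 0.131 and 0.162 to 19.2 and 21.1 (5.00 ± 0.24). The feedback target Axin2 rose from 1.85 and 1.68 to 10.6 and 9.81 and Lef1, a nuclear effector, from 0.101 and 0.0378 to 2.88 and 2.81. Wnt3, Dkk1, Axin2 and Lef1 were thus all higher. The secreted inhibitor gene Sfrp1 fell from 25.8 and 16.8 to 6.00 and 8.40 RPKM (-1.49 ± 0.27). The ligand gene Wnt3a and the receptor gene Fzd5 fell too. The Wnt3a call was lost without mESC library 2 or EB library 2 (-1.03 and -1.17), and that of Fzd5 without mESC library 2 (-0.88). The stem cell medium held the GSK3 inhibitor CHIR99021, an activator of the pathway, and the same concentration is listed for the EB samples. FGF and MAPK feedback genes gave 13 rises and 6 falls of 32. Of the falls 3 held without any 1 library, and median centring gave 16 rises and 3 falls. Besides Fgf4, the falls included Fos (12.3 and 9.65 to 2.72 and 2.95 RPKM) and Etv5 (24.9 and 42.6 to 10.48 and 11.998). The phosphatase genes Dusp6 (3.41 and 5.92 to 30.8 and 30.4) and Dusp4 (5.77 and 6.88 to 50.1 and 46.2) and Myc (0.256 and 0.379 to 3.57 and 3.66) rose. Genes of this list thus went both ways, and the part of PD0325901, which inhibits the MEK kinase, was not tested.

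Of 23 Nodal pathway genes 6 rose and 5 fell (9 and 5 after median centring), beside 8.94% rises and 16.1% falls over all genes as deposited. Nodal itself had 23.6 and 40.9 RPKM in mESCs and 19.4 and 15.0 in EBs, lower in both EB libraries but short of the test (adjusted p = 0.0913). Its coreceptor gene Tdgf1 fell from 448 and 367 to 142 and 151 (-1.47 ± 0.26) and the related ligand Gdf3 from 49.4 and 68.7 to 2.10 and 2.77 (-4.33 ± 0.26). The nuclear partner Foxh1 rose from 27.1 and 15.1 to 118 and 115 RPKM. Ligand and coreceptor thus stayed well expressed at day 5. The Nodal inhibitors Lefty1 (4.12 and 3.84 against 8.001 and 8.66 RPKM) and Lefty2 (10.3 and 22.5 against 9.08 and 10.4) were not called. For Lefty1 that depended on the scaling. It was called higher after median centring (1.38), quantile normalization (1.22) and centring on genes at 5 RPKM or more (1.19). Cfc1, a coreceptor related to Tdgf1, went from 0.0769 and 0 to 31.6 and 37.4 RPKM but is uncertain, since 25.7% of its 31-base words occur in other genes.

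The retinoic acid list had 4 rises and 5 falls of 26 (median 0.01), or 7 and 2 after median centring. Over all genes 8.94% rose and 16.1% fell as deposited. The list held the second largest rise that the naming rule admits. Cyp26a1, the enzyme that degrades retinoic acid and is expressed in the streak, had 0.359 and 0.222 RPKM in mESCs and 125 and 113 in EBs (7.24 ± 0.16, adjusted p = 7.17e-10). Its promoter is shown because it is known to answer to retinoic acid through a repeat of the receptor's binding sequence. A stretch of the RefSeq promoter (GRCm38.p6, plus strand, chr19:37697756-37697807) reads as follows, with a direct repeat in capitals that ends 15 bases before the start site.
Cyp26a1 promoter: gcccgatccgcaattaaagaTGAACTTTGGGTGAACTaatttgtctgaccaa
The repeat, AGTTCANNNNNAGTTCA on either strand, was spelled after this promoter had been read, and it occurs in 8 of 32851 RefSeq promoters of 300 bases (0.0244%). A match describes letters only. The synthesis gene Aldh1a2 did not pass the test (0.776 and 0.639 against 0.263 and 0.259 RPKM) and the receptor gene Rarb rose to 1.27 and 1.90 RPKM. The meiotic target Stra8 was listed at 0 in both EB libraries after 6.38 and 3.21 RPKM in mESCs. Of the 5 falls 2 held without any 1 library.

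Epithelial and mesenchymal genes rose side by side: 16 of 33 rose and 1 fell (median 0.91). The epithelial genes Cldn6 (8.98 and 3.13 to 188 and 168 RPKM), Cldn7 (6.82 and 2.21 to 31.5 and 29.2) and Esrp1 (0.678 and 0.0761 to 7.41 and 8.54) were higher, and so were the mesenchymal Cdh2 (0.212 and 0.766 to 15.4 and 17.3), Zeb2 (0.175 and 0.463 to 2.52 and 3.10) and Snai1 (0.392 and 0.323 to 2.42 and 2.35). The cadherin gene Cdh1 (127 and 94.4 against 91.8 and 85.2 RPKM, adjusted p = 0.309) and Vim (179 and 340.1 against 315 and 322) did not pass the test, and feeder cells are also a source of Vim RNA.

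Imprinted genes, expressed from 1 parental copy, gave 18 rises and 8 falls of 46 (median 0.57). H19, a growth-restraining RNA, had 15.3 and 14.3 RPKM in mESCs and 1174 and 1087 in EBs (6.21 ± 0.33). Peg3 had 7.61 and 4.79 before and 247 and 246 after (5.24 ± 0.29), and Peg10, needed in the placenta, 5.96 and 5.77 before and 136 and 144 after (4.46 ± 0.31). All 3 were far higher in both EB libraries than in either mESC library. Nnat rose from 3.75 and 2.06 to 53.8 and 58.1 RPKM and the cell cycle inhibitor Cdkn1c from 1.11 and 0.949 to 7.30 and 4.81, while Meg3 overlapped between stages (12.5 and 7.03 against 11.2 and 14.7). Of the falls, Grb10, an adaptor that restrains insulin signalling, went from 14.8 and 18.5 to 1.40 and 1.38 RPKM (-3.17 ± 0.25) and Plagl1 from 7.40 and 7.30 to 0.595 and 0.772.

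The complexes named in the series title were called in part. Of 15 Elongin and PRC2 genes 2 rose and 5 fell, beside 8.94% rises and 16.1% falls over all genes. Eed had 88.6 and 155 RPKM in mESCs and 49.8 and 50.5 in EBs (-1.22 ± 0.20, adjusted p = 5.21e-04), Suz12 50.03 and 42.8 before and 19.4 and 24.4 after (-1.07 ± 0.23) and Mtf2, an accessory subunit that binds CpG islands, 107 and 151 before and 40.4 and 41.6 after (-1.62 ± 0.19). The catalytic Ezh2 did not pass the test (22.3 and 19.2 against 15.7 and 17.0 RPKM, adjusted p = 0.129). The Eed change was under 2-fold without mESC library 2 (-0.82), that of Suz12 without mESC library 1 or EB library 1 (-0.96 and -0.91), and 1 fall was left after median centring, so the direction of the group is not firm. The histone chaperone gene Rbbp7 (91.0 and 116 to 258 and 252 RPKM) and Tceb2, of Elongin B (88.9 and 101.1 to 226 and 198), rose, with 16.5% and 20.5% of their 31-base words in other genes. In Polycomb repressive complex 1, of 20 genes 3 rose and 2 fell, counts near the shares over all genes. Cbx7, the chromobox subunit of stem cells, fell from 17.1 and 12.7 to 4.42 and 5.61 RPKM (-1.48 ± 0.25) and Cbx2 rose from 7.02 and 6.64 to 14.8 and 14.7 (1.06 ± 0.20).

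Genes of growth and stress gave smaller groups of calls. Of 26 genes of the amino acid stress response 12 fell and 3 rose (median -0.95), but 6 of the falls held without any 1 library and 6 after median centring. Asns, which makes asparagine, fell from 285 and 351 to 100.1 and 75.5 RPKM (-1.86 ± 0.20) and Nupr1 from 48.0 and 33.8 to 1.23 and 0.472 (-4.98 ± 0.41), whereas Atf4, the regulator of the response, changed by less than 2-fold (-0.69 ± 0.20). In glycolysis 5 of 24 genes rose and 3 fell. The kinase genes Hk2 and Pfkp fell, Hk2 from 135 and 92.1 to 21.2 and 28.2 RPKM and Pfkp from 213 and 109 to 7.83 and 18.1, while the lactate transporter gene Slc16a1 rose from 90.7 and 89.0 to 345 and 354. Of 28 proliferation genes 3 fell and none rose, but 1 fell and 3 rose after median centring. Mki67 had 26.7 and 22.6 RPKM in mESCs and 37.1 and 42.9 in EBs, a change under 2-fold. Of 26 p53 target genes 6 fell, led by the cytokine Gdf15 (15.5 and 6.09 to 0.225 and 0.303 RPKM), with Cdkn1a at 15.8 and 14.04 before and 8.13 and 6.97 after not called. One-carbon genes gave 1 rise and 6 falls of 27, heat shock genes 5 and 4 of 24, cell cycle inhibitors and cyclins 1 and 4 of 21 and genes of the 2-cell stage no rise and 3 falls of 15, beside 8.94% rises and 16.1% falls over all genes. After median centring heat shock genes had 6 rises and 1 fall, and cell cycle genes 4 rises and no fall. Without any 1 library 1 of the 4 cell cycle falls held. The balance of rises and falls in the proliferation, heat shock and cell cycle lists therefore depends on the scaling. Genes of the 2-cell stage had no rise and 2 falls after median centring.

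Feeder fibroblast genes fell in 25 of 38 cases and rose in 2 (median -2.12), 18 of the falls without any 1 library. Lox, which crosslinks collagen, had 61.5 and 128 RPKM in mESCs and 0.0133 and 0.0131 in EBs, the largest fall of any gene the naming rule admits (-7.44 ± 0.36, adjusted p = 2.76e-08). Postn had 34.2 and 108 before and 0.749 and 0.303 after and Col1a1 24.7 and 55.2 before and 2.17 and 1.54 after. In each of these the second mESC library had about 2 to 3 times the level of the first. Of the 15 largest falls Lox, Tnc, Col12a1, Postn and Col1a2 are genes of matrix or of fibroblasts, and Tnc and Col12a1 were higher in the second mESC library as well (54.1 and 110.1, 26.6 and 49.6 RPKM). The part of feeder RNA in other falls was not tested. Nanog and Zfp42 were likewise higher in the second mESC library, while Fgf4, Sohlh2 and Pecam1 were higher in the first.

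Genes that share sequence with copies elsewhere were called at other rates than the rest. Of 78 ribosomal protein genes 72 rose and none fell (median 2.76), and their summed level went from 17273 and 15288 RPKM to 60098 and 55442. Rows of ribosomal protein pseudogenes went the other way, from 4045 and 3654 RPKM summed over 161 rows to 1058 and 1016. Processed pseudogenes in all, 2233 tested, gave 4.16% rises and 37.8% falls, and their sum went from 26273 and 26121 RPKM to 5894 and 5614. Among protein-coding genes, those with 20 to 50% of their 31-base words in other genes rose in 18.8% and fell in 10.7% of cases, against 9.85% and 15.9% for those with none. Only 1 of the 78 ribosomal protein genes had 5% or less. Replication-dependent histones (48 rises and 3 falls of 60, with 6 genes at 5% or less, of which 1 rose and 1 fell), Gapdh (11.3 and 16.4 to 275 and 377 RPKM), Hspa8 (40.9 and 64.1 to 683 and 670.3), Ahcy and Fau are uncertain for the same reason. Among other called genes named here, Dnmt3b, Lef1, Pou5f1, Zfp42, Tdgf1, Sox17, Rarb, Etv5, Cdkn1c and Sycp3 had between 12.6% (Tdgf1) and 46.5% (Sycp3). Genes named below for a difference between lines shared words too, among them Mup6 (24.3%), Rhox6 (23.3%), Psmb8 (13.7%), Xist (12.7%) and Rhox9 (9.08%). Whether the 2 tables treated reads with several matches alike was not tested. Among the 10529 protein-coding genes with 5% or less, 1009 rose and 1560 fell, and 17 of 21 naive, 17 of 25 streak, 17 of 25 cardiac and 16 of 19 endoderm genes of this kind were called in the direction of their list.

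**Figure D3:**
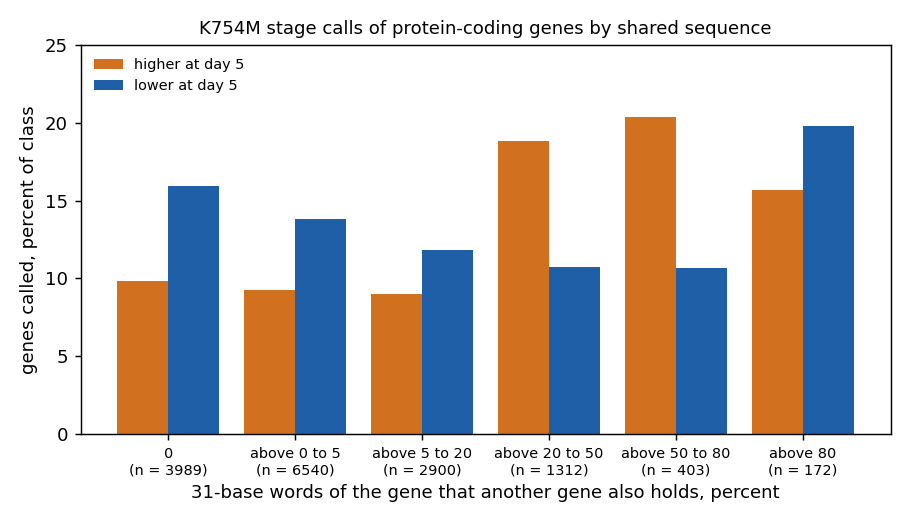
Share of protein-coding genes called higher (orange) or lower (blue) in K754M EBs against K754M mESCs, in percent, by the share of a gene's 31-base words that another gene also holds, with the number of genes in each class under its bars. Rises outnumber falls in the classes from 20 to 50% and 50 to 80%, and falls outnumber rises in the others.

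Further genes among the 15 largest rises were Vrtn, a regulator of vertebral number (0.110 and 0.0363 to 63.4 and 62.0 RPKM), Pdlim3 (0.404 and 0.125 to 69.1 and 51.5), the carbonic anhydrase Car4 (0.0718 and 0.0295 to 42.8 and 36.0), Mogat2 (1.78 and 0.464 to 82.0 and 81.5) and the protease Tmprss2 (0.0757 and 0 to 24.2 and 24.0). Their EB values were alike between libraries, and each of the 5 stayed called in every fit without 1 library. Further large falls were of the water channel Aqp3 (100.6 and 71.4 to 0.495 and 0.672), Saa3 (27.9 and 33.5 to 0 and 0.116), Spp1 (366 and 421 to 6.24 and 7.45), Calcoco2 (37.9 and 84.8 to 0.6997 and 0.556), Aldoart1 (53.6 and 31.7 to 0.0976 and 0.128) and Tuba3a (75.6 and 79.5 to 0.248 and 0.183). Of these Spp1, Calcoco2, Aldoart1 and Tuba3a are uncertain, with 14.3%, 20.2%, 16.8% and 51.5% of their words in other genes.

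The stage change of K754M differed from that of WT in few genes. In the contrast of the 2 stage changes 21 genes were higher (0.092%) and 23 lower (0.101%) in K754M, 0.193% of the genes tested in all, while 2054 had an unadjusted p below 0.05. None of the 44 was called whichever of the 8 libraries was left out. The lone library of a group was then taken to vary like the other groups, and the number of calls ran from 0 without K754M EB library 2 to 98 without K754M mESC library 2. Of the 21 higher genes 20 had lower values in both K754M mESC libraries than in both WT mESC libraries, and 12 had higher values in both EB libraries (15.1% and 23.2% of all genes tested). Of the 23 lower genes 17 had higher mESC values and 15 lower EB values in K754M (18.1% and 22.1% of all genes tested). These genes were chosen on a contrast that holds the same values, so the counts only describe them. Chit1, a chitinase of macrophages, had 0.220 and 0.0725 RPKM in K754M mESCs and 0.414 and 0.306 in EBs, against 3.20 and 3.18 before and 0.106 and 0.0518 after in WT (difference 3.09 ± 0.36, adjusted p = 0.0106). Slamf9 (2.46), the lipase gene Liph (2.14), the piRNA pathway gene Tdrd12 (1.94), Tspan2 (1.85), Inhbe (1.64) and Gldc of glycine breakdown (1.46) were others.

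The Y-linked genes Zfy1 and Ube1y1 were in the same group, but are uncertain, since 53.9% and 61.6% of their words occur in other genes, and both were near 0 in the EBs. Zfy1 had 0.238 and 0.392 RPKM in K754M mESCs against 4.15 and 5.80 in WT, and all 4 EB libraries were at or below 0.0317 (difference 2.69 ± 0.42). Ube1y1 had 0.421 and 0.479 against 7.74 and 4.96 in mESCs (difference 2.42 ± 0.33). Other Y-linked genes, Ddx3y and Eif2s3y, with 1.54% and 0.448% of such words, were lower in K754M than in WT at both stages, with no call on the difference. Ddx3y had 8.02 and 13.2 RPKM in K754M mESCs and 7.01 and 5.54 in EBs, against 33.5 and 33.0 before and 16.7 and 16.7 after in WT, and Eif2s3y had 8.17 and 6.83 before and 5.65 and 5.72 after against 55.5 and 46.9 before and 24.7 and 25.1 after. The share of Y-linked RNA thus separated the K754M libraries from the WT libraries before differentiation, and its part in the calls was not tested.

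Genes of the interferon response had the most negative differences among the genes that the naming rule admits in that contrast. Gbp2, a guanylate-binding protein induced by interferon, had 0.356 and 0.122 RPKM in K754M mESCs and 2.43 and 1.65 in EBs, against 0 and 0.110 before and 16.8 and 22.5 after in WT (difference -3.40 ± 0.51, adjusted p = 0.0258). Psmb8, of the immunoproteasome, had 0.0872 and 0.0957 before and 0.125 and 0.0449 after in K754M and 0.132 and 0.134 before and 4.74 and 5.94 after in WT (-3.22 ± 0.30, adjusted p = 0.00798). Gbp1 (-2.87) and Gbp3 (-2.84) were alike. At the mESC stage all these values lay below 0.4 RPKM in both lines, and in the EBs the WT values lay far above those of K754M. Of the 28 genes of the antigen presentation and interferon list, 10 rose and 1 fell in WT EBs, and 4 rose and 3 fell in K754M EBs. In K754R EBs, whose Gbp2 was 0.597 and 0.536 RPKM, 2 rose and 4 fell. Over all genes tested 10% rose and 16.1% fell in WT, 8.94% and 16.1% in K754M, and 9.94% and 17.1% in K754R. The K754M and K754R counts as deposited lay near those shares. After median centring the counts in K754M were 9 and 1, and after the other scalings 7 and 2. In the test of the difference itself 3 of the 28 genes were lower in K754M than in WT and none higher. WT EBs had the highest Gbp2 of the 3 lines. The Gbp2 promoter is shown for its interferon-type element, GAAANNGAAA on either strand, in capitals and 49 bases before the start site (RefSeq, GRCm38.p6, plus strand, chr3:142620584-142620633).
Gbp2 promoter: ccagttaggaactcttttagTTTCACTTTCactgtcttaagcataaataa
The element occurs in 15 of the 29 promoters found for that list (51.7%) and in 1131 of all 32851 (3.44%). Gbp2 and Gbp3 are among the 15, and Psmb8 is not. Without 1 library the difference was called in 2 of 8 fits for Gbp2 (-3.63 to -3.17, adjusted p from 0.0294 to 0.142), in 7 for Psmb8 and in 5 for Gbp1. Spink3 was also in this group: its EB level of 334 and 312 RPKM lay below the 728 and 546 of WT, and WT mESCs were listed at 0 (difference -2.70 ± 0.43, called in none of the 8 fits). Hist1h1t (-2.51), Trpm1 (-2.17) and Slc38a5 (-1.96) completed the named genes, and their K754M mESC values lay above those of WT.

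K754M and K754R differed in more genes. Here 129 genes were higher and 59 lower in the stage change of K754M, 0.824% of those tested (0.565% and 0.259%), and 27 of the 188 (21 and 6) were called whichever of the 8 libraries was left out, while the number of calls ran from 32 without K754M EB library 2 to 474 without K754R mESC library 1. Of the 129, 99 had higher values in both K754M EB libraries than in both K754R EB libraries, and 94 had lower values in the K754M mESCs (23.6% and 14.1% of all genes tested). Pluripotency genes were among them. Pou5f1 had 358 and 370.1 RPKM in K754M mESCs and 286 and 299.8 in K754R, and 51.5 and 52.3 against 5.61 and 3.44 in EBs (difference 3.11 ± 0.23, adjusted p = 3.01e-04). Nanog had 465 and 656 RPKM in K754M mESCs against 514 and 537 in K754R, and 58.7 and 62.1 against 6.39 and 5.39 in EBs (3.19 ± 0.32, adjusted p = 0.00176). K754M EBs thus kept about 10 times the Pou5f1 and Nanog RNA of K754R EBs, and WT EBs, with 47.9 and 50.2 RPKM of Pou5f1 and 36.7 and 59.0 of Nanog, were on the side of K754M. Both calls held in each of the 8 fits without 1 library. Zfp42 (2.73), Tdgf1 (2.46), Tex19.1 (2.28) and Mir290 (1.70) were called too, in 2, 4, 5 and 5 of those fits. Of the 30 naive genes 6 were called higher and none lower.

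**Figure D4:**
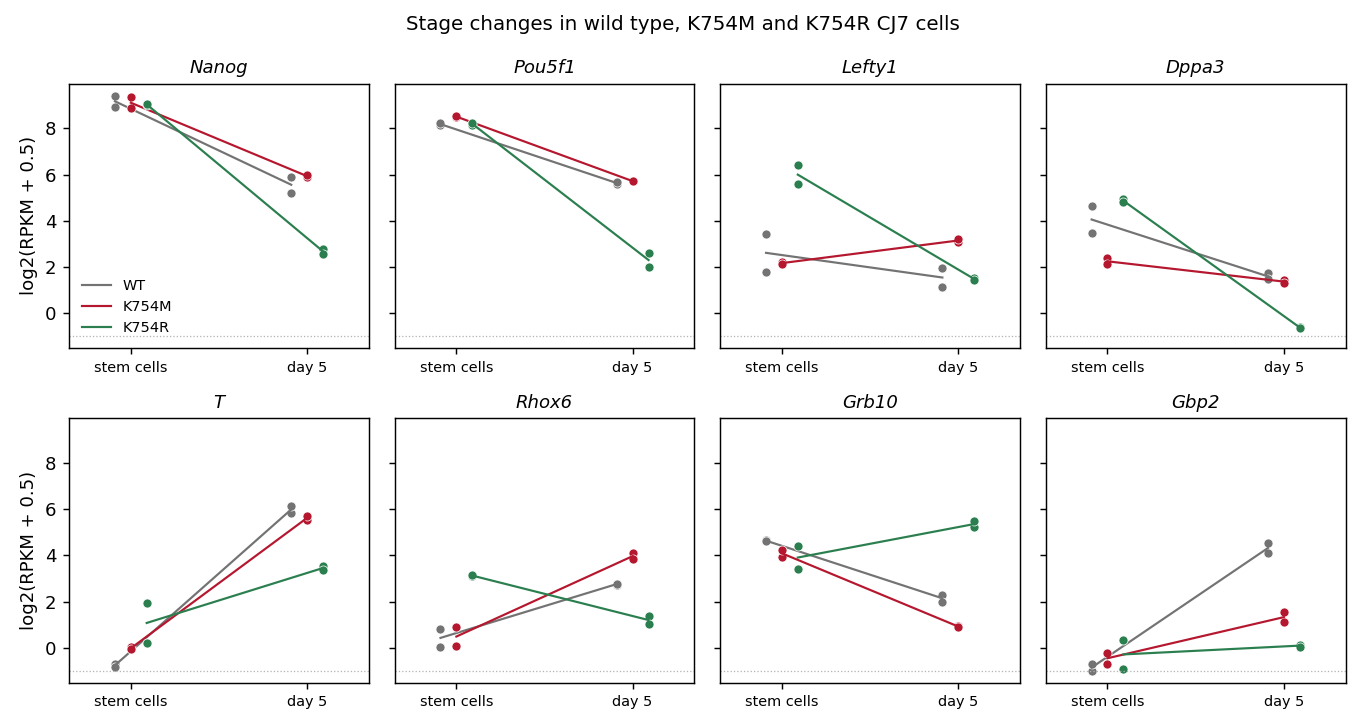
Levels of 8 genes in WT (grey), K754M (red) and K754R (green) libraries as mESCs and at day 5, as log2(RPKM + 0.5). Points are single libraries, lines join the group means and the dotted line is the level of a gene listed at 0 RPKM. Nanog and Pou5f1 fall furthest in K754R. Lefty1 and Dppa3 start lower and end higher in K754M than in K754R. Grb10 falls in K754M and WT but not in K754R, and Gbp2 is highest in WT EBs.

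The Nodal inhibitors differed at both stages, with lower values in K754M than in K754R mESCs and higher values in the EBs. Lefty1 had 4.12 and 3.84 RPKM in K754M mESCs and 8.001 and 8.66 in EBs, against 47.4 and 84.3 before and 2.36 and 2.21 after in K754R (5.50 ± 0.62, adjusted p = 0.00299), and Lefty2 had 10.3 and 22.5 before and 9.08 and 10.4 after against 81.8 and 182 before and 1.37 and 1.09 after (5.52 ± 0.80, adjusted p = 0.0111, called in 5 of the 8 fits). WT mESC libraries had 2.93 and 10.3 RPKM of Lefty1, below K754R as well. Dppa3, which protects maternal methylation in the zygote, had 4.65 and 3.83 before and 2.21 and 1.93 RPKM after in K754M against 30.0 and 27.3 before and 0.157 and 0.141 after in K754R (4.61 ± 0.42). Lefty1, Lefty2 and Dppa3 share 25.7%, 18.4% and 29.6% of their words with other genes. The X-linked homeobox genes Rhox6 and Rhox9 rose in K754M and not in K754R: Rhox6 had 0.552 and 1.36 before and 16.6 and 13.9 RPKM after against 8.09 and 8.38 before and 2.07 and 1.55 after (5.41 ± 0.46), with WT at 0.538 and 1.24 before and 6.18 and 6.38 after, and Rhox9 differed by 4.46 ± 0.35.

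Of the 29 streak genes 2, T and Mixl1, were called higher in K754M and none lower. T reached 46.1 and 51.8 RPKM in K754M EBs, 57.5 and 69.4 in WT and 11.3 and 9.71 in K754R (difference from K754R 3.27 ± 0.57, called in 3 of the 8 fits), and Mixl1 reached 16.1 and 14.6 in K754M, 8.02 and 7.05 in WT and 3.55 and 3.91 in K754R (1.88 ± 0.34, called in 1). The mESC values of T in K754R, 0.652 and 3.35, lay above those of K754M and differed from each other. The visceral endoderm gene Afp (2.27), Nes (1.64), the Polycomb-like imprinted gene Sfmbt2 (2.78), Igfbp3 (3.35), Mup6 (3.89) and Zfy1 (3.32) were the other named genes on this side. Of the 59 genes in the lower direction 50 had lower values in both K754M EB libraries than in both K754R EB libraries and 38 had higher mESC values (25.8% and 15.1% of all genes tested). These counts too describe genes chosen on the same values. Xist, the RNA that coats the inactive X chromosome of female cells, had 2.83 and 3.71 RPKM in K754M mESCs and 0.257 and 0.354 in EBs, against 2.50 and 2.70 before and 27.5 and 35.7 after in K754R and 0.149 and 0.366 in WT EBs (-5.58 ± 0.31, adjusted p = 3.61e-05). Grb10 had 1.40 and 1.38 RPKM in K754M EBs and 37.4 and 44.0 in K754R, with 4.37 and 3.51 in WT (-4.62 ± 0.36, adjusted p = 3.01e-04). In both genes K754R EBs lay far above the EBs of K754M and WT, and both calls held in each of the 8 fits. Eed null EBs had 16.8 and 20.1 RPKM of Grb10, also above K754M and WT, and 0.588 and 0.904 of Xist. Postn (-4.28), Hesx1 (-2.85), Ednrb (-2.45), Sfrp1 (-2.30), Sfrp5 (-2.22) and Tal2 (-2.20) followed, of which Tal2 was called in all 8 fits. Y-linked Ddx3y was 31.7 and 21.9 RPKM in K754R mESCs and 11.2 and 10.6 in its EBs. K754R EBs thus held both Xist and Y-linked RNA.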

How the data were processed

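Total RNA depleted of ribosomal RNA was sequenced, per the labels' protocols. The authors deposited RPKM values per gene in 1 table of mESCs and 1 of EBs. CASAVA 1.7, STAR and the mm9 build appear, with no role, per the submitters' processing notes. For the counting tool, the annotation, the use of strand and reads with several matches, nothing was given in the sources used here. The 2 tables were joined by gene identifier (37583 genes), and 22818 genes with at least 0.25 RPKM in at least 2 of 16 CJ7 libraries were tested. Columns of 12 libraries from another stem cell line, CCE, were not used.

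Values were taken as log2(RPKM + 0.5) and fitted with limma 3.58.1 (trend, R 4.3.3) as 8 group means, with Benjamini-Hochberg adjustment over all genes tested. Tested were the stage change of K754M and its difference from that of WT and of K754R. The script was tested on simulated data. Named by rule were Tceb3, Eed, the key members of each list, up to 4 called members of each list with the largest rise and 4 with the largest fall, the 15 largest changes per direction between stages and the 8 largest per direction in each difference of stage changes (whose rule leaves out predicted, small RNA and ribosomal names and names with a dot). Any other gene named was chosen after its values were seen. Members and lists were chosen with earlier results of these data known. The share of 31-base words of a gene found in other genes came from GENCODE M21 transcripts, which gave a value for 92.9% of the genes tested. Promoters and microRNAs came from RefSeq (GRCm38.p6). The file holds no counts, so the depth was estimated from the size of the step between low values, and no counting intervals were computed. Replicate numbers did not pair the libraries. Alternatives covered the pseudocount, filter, scaling, fold minimum, libraries in the fit, replicate block and leaving out each library.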

Additional observations from a re-analysis of the deposited data

Results flagged for a closer look

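The stage change of K754M differed from that of WT, by a test of the difference itself, in 44 genes. Among the named ones the difference (log2, K754M minus WT) was positive for Chit1 (3.09), Zfy1 (2.69), Slamf9 (2.46), Ube1y1 (2.42), Liph (2.14), Tdrd12 (1.94), Tspan2 (1.85), Inhbe (1.64) and Gldc (1.46). It was negative for Gbp2 (-3.40), Psmb8 (-3.22), Gbp1 (-2.87), Gbp3 (-2.84), Spink3 (-2.70), Hist1h1t (-2.51), Trpm1 (-2.17) and Slc38a5 (-1.96). Without 1 library the difference was called in 7 of 8 fits for Psmb8, 5 for Gbp1, 4 for Chit1 and in none for Spink3 and Gldc.

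The difference from K754R was called in 188 genes. It was positive for Lefty2 (5.52), Lefty1 (5.50), Rhox6 (5.41), Dppa3 (4.61), Rhox9 (4.46), Mup6 (3.89), Igfbp3 (3.35), Zfy1 (3.32), T (3.27), Nanog (3.19), Pou5f1 (3.11), Sfmbt2 (2.78), Zfp42 (2.73), Tdgf1 (2.46), Tex19.1 (2.28), Afp (2.27), Mixl1 (1.88), Mir290 (1.70) and Nes (1.64). It was negative for Xist (-5.58), Grb10 (-4.62), Postn (-4.28), Hesx1 (-2.85), Ednrb (-2.45), Sfrp1 (-2.30), Sfrp5 (-2.22) and Tal2 (-2.20). Dppa3, Grb10, Lefty1, Nanog, Pou5f1, Rhox6, Rhox9, Tal2, Xist and Zfy1 were called in each of the 8 fits without 1 library.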

How the results depend on the processing

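No alternative that was run turned the direction of a called value. The stage change of K754M had 9279 calls without a fold minimum and 2569 among protein-coding genes with few shared bases, where fewer genes were tested, and its other alternatives stayed within 1.5 times the 5719 calls, between 4535 and 7291. The difference from WT had 44 calls. It had 16 in a fit of 12 libraries without Eed null, 29 among genes with few shared bases, and from 0 (without K754M EB library 2) to 98 (without K754M mESC library 2) when 1 library was left out. The difference from K754R had 188 calls, with 82 in the 12 libraries and from 32 (without K754M EB library 2) to 474 (without K754R mESC library 1) when 1 was left out. The causes were not tested. With the replicate number as a block the calls were 5603 for the stage change, 0 for the difference from WT and 16 for that from K754R. Across genes, the difference between K754M libraries 1 and 2 in mESCs correlated at -0.098 with that in EBs. The numbers were therefore not taken to pair the libraries. With the WT numbers crossed, chosen after seeing the data, the block gave 0. Libraries per group (2), the estimated depth and values near 0.25 RPKM limit what could be called, and an exact permutation test of 2 against 2 libraries cannot go below 0.333.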
